A study of Mus musculus with 33 samples.

Results

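The regions described here were open in the embryonic forebrain and KOD in both the embryonic heart and mouse embryonic stem (mES) cells. They were chosen by these states alone: a bin of 10 kb on chromosomes 1 to 19 is a member if it stands in the open list of the forebrain and in the KOD lists of the other sources, and adjacent member bins were joined. This gave 1286 regions with 56.84 Mb in all, which is 2.37% of the 2401 Mb covered by the maps, set beside 26939 deposited domains of all states and sources. The states that chose the regions are therefore a description and carry no test.

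The series holds 33 CUT&RUN libraries, in which an antibody guides an enzyme that cuts and releases the DNA around its target. Forebrain and heart came from wild-type C57BL/6 embryos at E11.5, taken as right forebrain lobes and whole hearts and pooled by tissue, with 3 pools from separate litters. The mES cells are a C57BL/6 line that was first plated on feeder cells and then grown with LIF and a pair of kinase inhibitors, in 3 culture vessels. Each source was profiled for H3K9me2 and Lamin B1, with IgG as control. H3K9me2 and Lamin B1 had 3 libraries each per source, while IgG had 6 in each tissue and 3 in mES cells. Both tissues are mixtures of cell types, so a state that holds in part of the cells and a weak state in all of them cannot be told apart. No RNA was measured, so the tissues could not be checked against marker expression and a state is no measure of transcription.

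H3K9me2, dimethylation of lysine 9 of histone H3, is written mainly by the methyltransferases G9a and GLP and marks chromatin in which genes are mostly silent. Much of it lies in lamina-associated domains (LADs), which touch the Lamin B1 meshwork under the nuclear envelope, and part of it lies away from the lamina. KOD is the study's own name for its second class of domains, which the labels do not spell out. It is used here only as that name, for listed stretches that are neither LAD nor open. In each source the 3 states did not share a bin, and some bins were in no list. There is 1 list per state and source, made over all replicates and without a score, so the sequencing depth under a domain is unknown and replicate error cannot be given. Errors given as SE are delete-one-chromosome jackknife standard errors over the 19 chromosomes, which measure the spread along 1 pooled map and not between animals or cultures. No p-value is given, since every comparison is between sets cut from the same 3 pooled maps.

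The starts of genes that lay in the regions ranged from very CpG-rich to CpG-poor, and 6 are printed to show that range beside the gene values further on. Each sequence is the 250 bases before a start that lies in a member region, from RefSeq on GRCm38.p6, written from 5′ to 3′ on the strand of the gene, with every CG dinucleotide in capitals. The first 3 are the starts of Cacna1d, the pore subunit of an L-type calcium channel (chr14:30353487-30353736, minus strand), Camk2b, a subunit of the calcium-dependent kinase of synapses (chr11:6065749-6065998, minus strand), and Klf4, a zinc finger factor of stem cells and epithelia (chr4:55532476-55532725, minus strand). The others are those of Cyp26b1, an enzyme that breaks down retinoic acid (chr6:84593811-84594060, minus strand), Gja5, the gap junction protein connexin 40 (chr3:97032152-97032401, plus strand), and Casq2, the calcium store protein of heart muscle (chr3:102086165-102086414, plus strand).
Cacna1d: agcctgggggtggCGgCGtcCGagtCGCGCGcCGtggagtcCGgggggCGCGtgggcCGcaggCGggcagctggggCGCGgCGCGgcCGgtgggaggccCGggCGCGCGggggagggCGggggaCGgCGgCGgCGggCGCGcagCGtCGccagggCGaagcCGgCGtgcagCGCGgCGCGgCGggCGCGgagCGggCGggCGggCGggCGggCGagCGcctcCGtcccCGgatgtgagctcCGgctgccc
Camk2b: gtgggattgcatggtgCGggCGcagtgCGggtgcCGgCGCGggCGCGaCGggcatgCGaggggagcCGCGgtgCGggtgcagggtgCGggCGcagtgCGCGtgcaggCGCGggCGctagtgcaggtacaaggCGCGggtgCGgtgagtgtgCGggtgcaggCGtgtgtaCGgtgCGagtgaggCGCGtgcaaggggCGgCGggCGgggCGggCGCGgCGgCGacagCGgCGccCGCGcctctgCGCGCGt
Klf4: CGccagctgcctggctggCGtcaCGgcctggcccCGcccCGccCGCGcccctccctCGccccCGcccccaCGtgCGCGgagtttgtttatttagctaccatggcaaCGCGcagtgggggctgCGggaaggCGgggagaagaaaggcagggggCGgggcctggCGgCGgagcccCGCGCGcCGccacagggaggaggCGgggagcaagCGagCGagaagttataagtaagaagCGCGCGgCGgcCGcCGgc
Cyp26b1: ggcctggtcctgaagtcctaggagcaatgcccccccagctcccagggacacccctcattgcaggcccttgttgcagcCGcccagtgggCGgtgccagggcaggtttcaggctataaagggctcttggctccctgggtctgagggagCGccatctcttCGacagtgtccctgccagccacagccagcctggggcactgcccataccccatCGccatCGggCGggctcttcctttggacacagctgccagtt
Gja5: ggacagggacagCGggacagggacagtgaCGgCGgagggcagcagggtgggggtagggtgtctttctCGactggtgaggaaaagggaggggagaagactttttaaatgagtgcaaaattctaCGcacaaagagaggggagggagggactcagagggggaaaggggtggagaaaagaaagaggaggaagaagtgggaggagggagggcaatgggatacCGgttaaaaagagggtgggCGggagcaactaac
Casq2: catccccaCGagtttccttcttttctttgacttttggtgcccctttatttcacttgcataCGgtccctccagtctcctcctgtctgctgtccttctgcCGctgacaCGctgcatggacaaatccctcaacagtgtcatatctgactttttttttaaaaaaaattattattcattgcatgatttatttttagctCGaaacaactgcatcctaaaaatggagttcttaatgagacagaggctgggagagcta
The Cacna1d window belongs to a start inside the gene body, and the start listed at the outer end of that gene lay in no member. The printed starts of Camk2b and Cyp26b1 also lay inside the gene body, near its outer end. These windows held 50 CG dinucleotides for Cacna1d, 44 for Camk2b and 32 for Klf4, against 7 for Cyp26b1, 7 for Gja5 and 5 for Casq2. The median over all 20084 listed starts of protein-coding genes was 10. The sequence TATAAA, searched on both strands, occurred in the Cyp26b1 window and in no other of the 6, and 11.7% of all listed starts held it.

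How much of the chromatin that heart and mES cells share as KOD is in another state in forebrain was asked first. Of the 266.76 Mb that were KOD in both, 21.3% ± 2.14 (SE) were open in forebrain, which is the set described here. Another 72.0% ± 3.08 were KOD in forebrain too, 3.27% ± 0.731 were LAD and 3.45% ± 0.569 were in no forebrain list. Open bins made up 31.1% of the whole forebrain map. The same question asked of the heart gave a smaller share. Of the 228.78 Mb that were KOD in forebrain and mES cells, 5.90% ± 1.20 (SE), or 13.49 Mb, were open in heart. The share was higher for forebrain than for heart on 19 of 19 chromosomes. Open in mES cells only was also common, at 28.5% ± 3.13 (SE) of the 295.09 Mb that were KOD in heart and forebrain, and the forebrain share lay above that of mES cells on 9 of 19 chromosomes and below it on 10.

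The regions were spread over all 19 chromosomes but unevenly. Between 34 regions, on chromosome 7, and 103, on chromosome 1, were found per chromosome. The share of the shared KOD bases that was open in forebrain had a median of 18.6% over chromosomes. It was 51.1% on chromosome 10, the highest, followed by 47.9% on chromosome 3, where the shared KOD amounted to only 5.80 Mb. The lowest shares were 10.4% on chromosome 9 and 12.2% on chromosome 11, which together held 42.39 Mb of shared KOD. On chromosomes 4 and 7 the forebrain and heart shares were close, 17.8% against 17.2% and 15.0% against 13.9%. Relative to chromosome size the regions were most dense on chromosome 17, where they took up 4.69%, and on chromosome 16, with 4.44%, and least dense on chromosome 7, with 1.07%. Leaving out chromosome 10 changed the genome-wide share to 20.2%.

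**Figure D1:**
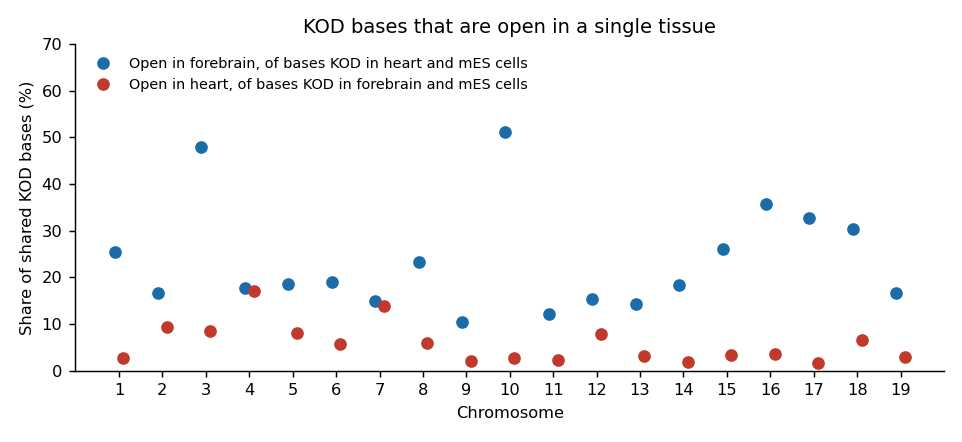
Share of shared KOD bases (%, vertical axis) that were open in forebrain (blue, of bases KOD in heart and mES cells) or in heart (red, of bases KOD in forebrain and mES cells) on each of the 19 chromosomes (horizontal axis). The blue point lies above the red on every chromosome, with the highest forebrain value, 51.1%, on chromosome 10, and nearly equal values on chromosomes 4 and 7.

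Most regions were short, while those of at least 100 kb held a large part of the bases. The median length was 30 kb (quartiles 10 and 60 kb) and the longest region had 370 kb. Regions of a single bin numbered 409, or 31.8% of all, yet they held 4.09 Mb. The 156 regions of at least 100 kb held 41.1% of the bases. Regions open only in heart were fewer, 469, with a median of 20 kb, and those of at least 100 kb held 22.0% of their bases. Stretches that were KOD in all 3 sources numbered 1699, with a median of 50 kb, and 80.1% of their bases lay in stretches of at least 100 kb.

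**Figure D2:**
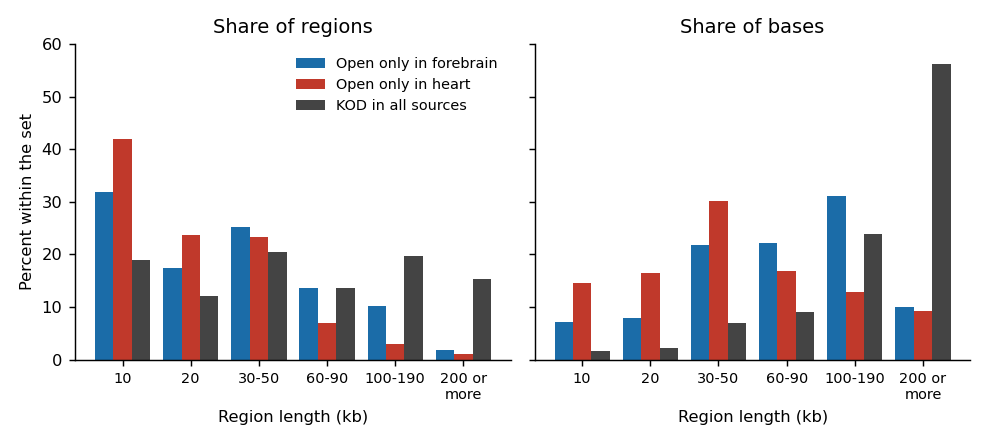
Share of regions (left) and of bases (right) in each length class (kb, horizontal axis) for KODs open only in forebrain (blue), KODs open only in heart (red) and stretches that are KOD in all sources (grey). Single bins are the most common class of the forebrain regions, 31.8% of them, while the class of 100 to 190 kb holds the most of their bases, 31.1%.

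What lay next to the regions was read from the bin beyond each of the 2572 ends. The most common kind of end was that of the forebrain open domain. At 1088 ends (42.3%) the forebrain was no longer open while heart and mES cells were still KOD, and 889 of these led into chromatin that was KOD in all 3 sources. At 774 ends (30.1%) the forebrain was still open and the heart KOD had ended, at 622 of them in chromatin open in heart. At 498 ends (19.4%) the mES KOD had ended with forebrain open and heart KOD, and at 163 (6.34%) both KODs had ended. LADs were rare neighbours, since the forebrain was LAD just beyond only 0.350% of the ends, the heart beyond 1.40% and mES cells beyond 0.194%.

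Counted by region, 251 (19.5%) ended with the forebrain domain on both sides, so that a whole open domain of the forebrain lay in shared KOD. Another 635 (49.4%) did so on 1 side, and at 400 (31.1%) the forebrain domain went on beyond both sides. A region touched a bin open in heart or mES cells on at least 1 side in 958 cases (74.5% ± 2.11, SE). Of the 3730 open domains of the forebrain, 878 held member bases, and the members filled a median of 31.1% of such a domain. Of the 268.98 Mb in those 878 domains, 52.5% were also open in heart and mES cells, 21.1% were members, 13.3% were open in heart and KOD in mES cells, and 9.04% were KOD in heart and open in mES cells. The domains with members were longer than forebrain open domains as a whole, with medians of 160 and 110 kb. A longer domain is more likely to hold a member bin by construction, so this is no trait of the regions.

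Seen from the other 2 maps, 882 of the 2974 KODs of the heart and 767 of the 2679 KODs of mES cells held member bases. The whole KOD was a member in 242 cases in heart and in 127 cases in mES cells. Members filled a median of 48.6% of a heart KOD that they touched and 35.0% of an mES KOD.

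Further away, open chromatin prevailed in forebrain and KOD in heart at every distance up to 1000 kb. In mES cells open bins outnumbered KOD bins from 200 kb on. Bins of neighbouring regions are counted in these shares. Such bins are open in forebrain and KOD in heart and mES cells by the rule, so part of the contrast is fixed by the choice of regions. At 100 kb from an edge, 63.5% of bins were open in forebrain, 41.6% in the heart and 45.8% in mES cells, and 29.6%, 54.0% and 52.9% were KOD. At 500 kb the KOD shares were 30.1% in forebrain, 49.5% in the heart and 43.8% in mES cells, where 17.2%, 18.5% and 17.5% of the whole maps were KOD. LAD bins made up 4.24%, 3.62% and 3.74% at that distance, against 44.0%, 40.1% and 43.6% of the whole maps. With neighbouring regions counted, the regions thus lay in long stretches with fewer LAD and more KOD bins than the whole maps, in every source. The surroundings of other KOD sets were not measured, so this cannot be called particular to the regions.

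**Figure D3:**
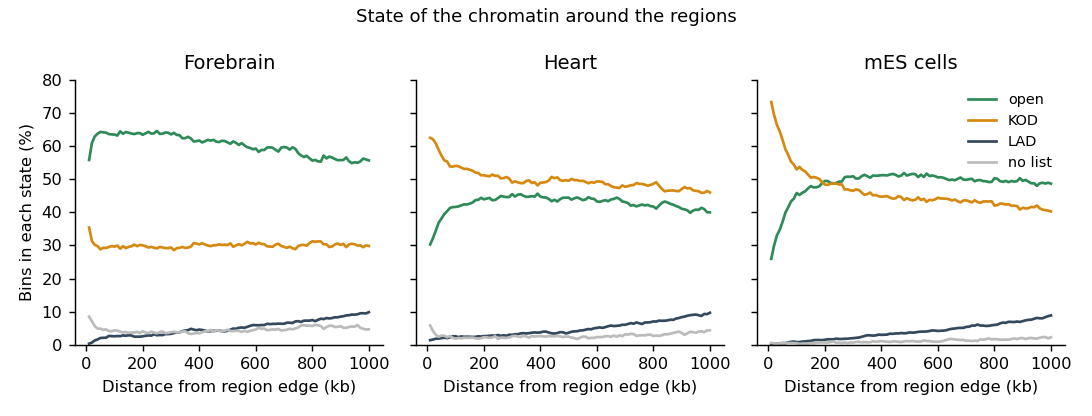
Share of bins (%, vertical axis) that are open, KOD, LAD or in no list at each distance from the edge of a region (kb, horizontal axis), over both sides of all 1286 regions, per source, with forebrain at the left. Open bins prevail in forebrain at every distance up to 1000 kb, KOD prevails in heart, and in mES cells open bins outnumber KOD bins from 200 kb on. Bins of neighbouring regions, whose states are fixed by the rule, are counted.

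The distance to the nearest LAD was measured in all sources, and members are never LAD by the rule. Its median over member bins was 1230 kb in forebrain (SE 153), 1230 kb in heart (SE 89.8) and 1670 kb in mES cells (SE 95.7). Bins that were KOD in all 3 sources lay farther away, with medians of 2830 kb (SE 257), 2030 kb (SE 210) and 2320 kb (SE 187) in the same order of sources. Bins open in both tissues and KOD in mES cells lay nearer, with medians of 1010, 720 and 1270 kb. KODs open only in heart had medians of 1840 kb (SE 544), 810 kb (SE 164) and 1590 kb (SE 303). They thus lay farther away than members in forebrain and nearer in heart, and differed by less than their SE in mES cells. Only 4.86% of member bins were within 100 kb of a forebrain LAD, 5.52% of a heart LAD and 1.25% of an mES LAD.

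Genes covered more of the regions than of shared KOD, while starts of genes were as sparse. Bodies of protein-coding genes took up 52.4% ± 2.31 (SE) of the member bases, against 37.4% ± 2.03 of the bases KOD in all 3 sources and 40.9% ± 0.930 of the whole map. The member value was the higher against KOD in all sources on 18 of 19 chromosomes. It lay above that of KODs open only in heart, 46.4% ± 2.40, on 13 of 19, and below that of bases open in both tissues, 61.2% ± 4.22, on 13 of 19. Starts of protein-coding genes numbered 6.13 per Mb (SE 0.608) in members, 5.93 (SE 0.853) in KOD shared by all sources, 9.66 (SE 1.37) in KODs open only in heart and 8.68 (SE 0.622) over the map. Of the 1286 regions, 431 lay wholly inside gene bodies and 487 touched no protein-coding gene. These starts come from the RefSeq promoter table, which covers 18 of the 19 chromosomes.

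A start was counted as CpG-rich when its 250 bases had over 50% G and C and a ratio of observed to expected CG above 0.6, the usual measure of a CpG island. Of the 332 starts in members, 34.3% ± 3.34 (SE) met it, with a median of 8 CG dinucleotides. In KOD shared by all sources 23.2% ± 1.95 of 1113 starts met it, with a median of 4 CG, and the member share was the higher on 11 of 18 chromosomes and the lower on 7. In KODs open only in heart it was 38.1% ± 2.66, in those open in both tissues 35.7% ± 3.46 and over the map 42.4% ± 1.56. Of the printed windows, those of Cacna1d, Camk2b and Klf4 met the criterion and those of Cyp26b1, Gja5 and Casq2 did not.

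**Figure D4:**
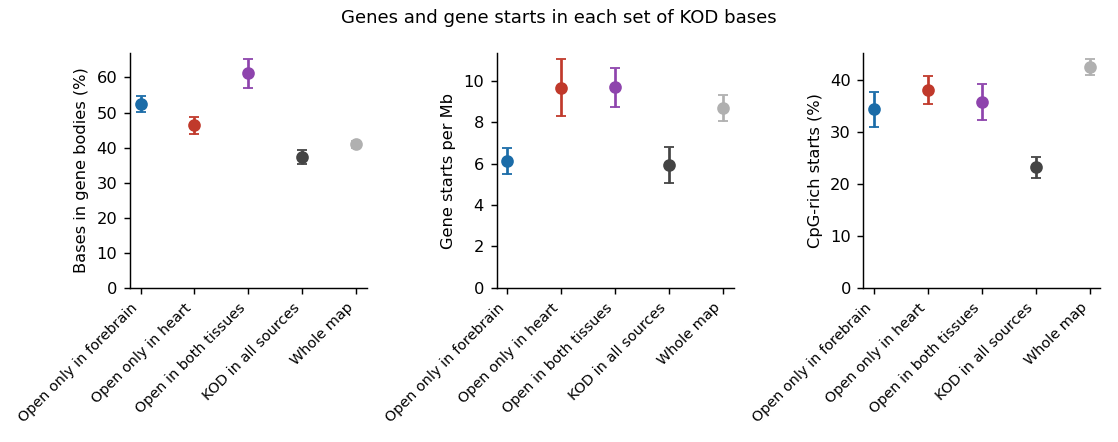
Share of bases in bodies of protein-coding genes (left), starts of such genes per Mb (middle) and share of starts that are CpG-rich (right) for KODs open only in forebrain, the 3 sets of KOD bases beside them and the whole map. Points are values and bars are jackknife SE over chromosomes; the forebrain regions are richer in gene bodies than KOD shared by all sources, 52.4% against 37.4%, at a like density of starts.

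The genes that the regions touched were long. Of 20661 protein-coding genes, 770 had at least 1 base in a member (3.73%), 322 had at least 50% of the body there (1.56%) and 144 lay wholly inside. The touched genes had a median length of 80.9 kb, against 17.5 kb for all genes, and 137 were touched by 2 or more regions. Any contact rises with length by construction: 1.46% of genes up to 10 kb were touched and 16.8% of genes over 200 kb. The share with at least 50% of the body inside depends less on this, at 1.33% and 3.18% in the same classes. Of the 16456 genes with a listed start, 285 had one in a member (1.73%). Of 598 touched genes with a listed start, 313 (52.3%) had no start in a member. The start of such a gene could still be open in forebrain, as in Prkce, whose body was open over 100% in forebrain. Along the bodies of the 245 touched genes of at least 100 kb with a listed start, cut into 10 equal parts, members covered between 23.0% and 28.5% of each part, and 24.5% of the part with the start.

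The 5 genes with the most member bases were Grip1, Prkce, Pde7b, Adamts17 and Cacna1d. Grip1, a scaffold that binds glutamate receptors (chromosome 10, 119453238 to 120087267), had 520 of its 634 kb in 3 regions. Prkce, protein kinase C epsilon, had 338 of 490 kb inside, and Pde7b, a phosphodiesterase that breaks down cyclic AMP, had 318 of 328 kb. Adamts17, a secreted metalloprotease, lay with all of its 313 kb in the longest region. Cacna1d had 310 of 451 kb inside. Grip1, Pde7b, Adamts17 and Cacna1d had a listed start in a member, and for Prkce none was.

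The 10 longest regions had between 240 and 370 kb. The longest spanned chromosome 7 from 66810001 to 67180000, with Adamts17 and 13.7 kb of the ceramide synthase gene Cers3, and on both sides the forebrain was still open. The next, chromosome 16 from 23290001 to 23590000, held parts or all of St6gal1, a sialyltransferase, Masp1, a protease of the complement system, and Rtp1 and Rtp4, which help receptors to the cell surface. Runx2, the transcription factor of bone formation, filled 204 kb of the region at chromosome 17 from 44430001 to 44700000. Iqgap2, a scaffold for small GTPases, took up 242 kb of that at chromosome 13 from 95650001 to 95910000, which also held the thrombin-type receptor gene F2rl2.
Among the others, chromosome 10 from 119800001 to 120050000 lay wholly inside Grip1, and chromosome 3 from 103400001 to 103640000 held 64.8 kb of Syt6, a synaptotagmin. Chromosome 4 from 57950001 to 58190000 held 147 kb of Svep1, an extracellular matrix protein, with the thioredoxin genes Txndc8 and Txn1. Chromosome 12 from 30180001 to 30420000 held 193 kb of the syntrophin gene Sntg2. Chromosome 17 from 12420001 to 12660000 held Slc22a3 and Slc22a2, neighbouring genes of organic cation transporters. The region of chromosome 8 from 35020001 to 35270000 touched no protein-coding gene, and it lies in the 1 Mb window with the most member bases, 680 kb, from 35000001 to 36000000.

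Whether the regions hold the genes of forebrain identity was asked with lists of genes. None of 57 matched transcription factors of the forebrain, such as Emx1 or Dlx1, had any base in a region, and none of 32 genes of neural progenitors did. Of all protein-coding genes 3.73% had such a base, so a count of 0 in lists of this size and of short genes is no result about them. The forebrain factors had a median length of 6.67 kb, and by the largest part of the gene body 44 of the 57 were open in forebrain, 47 in the heart and 42 in mES cells. They were thus mostly open in all 3 maps. Neuronal differentiation genes were touched in 4 of 49 cases and none had 50% of its body inside.

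Genes of axon guidance and of synapses and ion channels were touched more often, and they are long. Of 68 axon guidance and adhesion genes 12 were touched (17.6%) and 1 had at least 50% inside (1.47%), at a median length of 285 kb. Of 69 synapse and channel genes 12 were touched (17.4%) and 3 had at least 50% inside (4.35%), at a median length of 159 kb. These shares of touched genes are near the 16.8% of all genes over 200 kb. Among all genes of 100 to 200 kb, 164 of 1368 were touched (11.99%). The synapse and channel list, whose median length falls in that class, lay above this at 17.4%, and the difference was not tested. At least 50% of the body was inside for 2.85% of all genes in that class and 3.18% of those over 200 kb. The single guidance and adhesion gene was Nrxn2, a presynaptic adhesion protein (chromosome 19, 6418756 to 6533217), with 55.2% of its body in members. Its body was open over 90.2% in forebrain, 17.5% in the heart and 44.8% in mES cells.

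The 3 synapse genes were Kcna1, Camk2b and Cacna1d. Kcna1, a potassium channel of axons (chromosome 6, 126636463 to 126645801), lay wholly in a member and so was wholly open in forebrain and wholly KOD in heart and mES cells. Camk2b (chromosome 11, 5969629 to 6066357) was wholly open in forebrain, open over 41.7% in heart and wholly KOD in mES cells. Cacna1d (chromosome 14, 30039941 to 30491156) was open over 91.1% of its body in forebrain, 15.8% in the heart and 11.3% in mES cells. The starts of Camk2b and Cacna1d are among those printed above. Trimming every deposited domain by 10 kb at each end took Nrxn2 to 46.5%, Camk2b to 47.9% and Kcna1 to 37.9%, all below the 50% mark. Leaving out deposited domains under 100 kb took Camk2b and Kcna1 to 0%.
Across the 5 lists of forebrain and neural genes, another 24 genes were touched over less than 50% of the body. The first of them in list order were Rbfox1, a neuronal splicing factor, with 5.24% in members, the neuronal factor Myt1l with 5.66%, Dpysl5 with 10.7%, the ankyrin gene Ank3 with 10.9% and the netrin receptor gene Unc5a with 34.3%. Ntm and Cacna1c, named after their values were seen, had 310 and 267 kb inside, in 7 and 8 separate regions.

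Genes that pattern the forebrain through signals were touched in 5 of 61 cases (8.20%), and 2 had at least 50% inside (3.28%). Over all protein-coding genes the shares were 3.73% and 1.56%, and the differences were not tested. Bmp6, a bone morphogenetic protein (chromosome 13, 38345716 to 38500314), had 80.4% inside, and was wholly open in forebrain, KOD over 80.4% in heart and wholly KOD in mES cells. Cyp26b1 (chromosome 6, 84571414 to 84593908) lay wholly in a member.

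Genes known from other tissues were among the members as well. Of 44 cardiac contractile and conduction genes 2 had at least 50% inside (4.55%), Gja5 and Casq2. The share over all protein-coding genes was 1.56%, and the difference was not tested. Gja5, a gap junction gene of the atria and conduction system (chromosome 3, 97032402 to 97053634), was wholly open in forebrain and wholly KOD in heart and mES cells. Casq2 (chromosome 3, 102086415 to 102146514) was wholly open in forebrain, open over 10.8% and KOD over 89.2% in heart, and wholly KOD in mES cells. Most of the list was in another state: by the largest part of the body, 27 of the 44 genes were open in forebrain, 35 in the heart and 20 in mES cells, and 7, 6 and 15 were KOD. None of 31 cardiac transcription factors had 50% inside, which in a list of this size is no result about them.

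Of 37 endothelial and blood genes 2 had at least 50% inside (5.41%), Erg and Klf4, where the share over all protein-coding genes was 1.56%. Erg, a factor of endothelial cells (chromosome 16, 95359169 to 95586600), had 74.7% inside, and it was open over 77.6% in forebrain, KOD over 100% in heart and KOD over 97.1% in mES cells. Klf4 (chromosome 4, 55527137 to 55532475) lay wholly inside and is also the single one of 26 pluripotency genes that did, but had 46.4% inside after the trimming by 10 kb. By the largest part of the body, 21 of the 37 endothelial and blood genes were open in forebrain, 26 in the heart and 19 in mES cells, and 6, 6 and 9 were KOD. Runx2 was the single one of 30 mesenchyme and neural crest genes, with 64.0% inside. Of 33 germline genes, Figla and Sohlh1, which encode factors of germ cells, lay wholly inside, and Figla had 0% inside once domains under 100 kb were left out. No gene of H3K9 methylation and the lamina (31 genes), of the housekeeping list (28), of the imprinted list (29) or of the Hox clusters (39) had 50% of its body in a member. At 1.56% over all protein-coding genes, such small counts, or none, in lists of this size are no result about them.

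**Figure D5:**
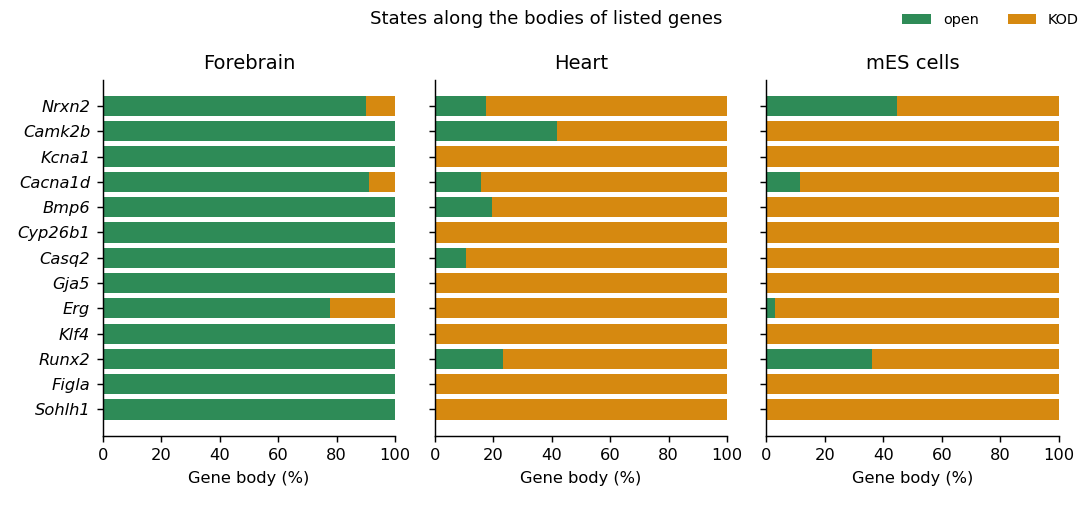
Share of the gene body (%, horizontal axis) that is open (green) or KOD (orange) in forebrain, heart and mES cells for the 13 genes of the neural, signalling, cardiac, endothelial, mesenchyme and germline lists with at least 50% of the body in members. Kcna1, Cyp26b1, Gja5, Klf4, Figla and Sohlh1 are wholly open in forebrain and wholly KOD in the other sources.

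Families matched by name gave a few more members. Solute carriers had 12 of 351 genes with at least 50% inside (3.42%), the first of them Slc26a9, Slc2a6, Slc35b4, Slc22a14, Slc22a13, Slc22a4, Slc36a1 and Slc5a10. Of those named, Slc26a9, Slc2a6, Slc22a13, Slc22a4 and Slc5a10 fell below 50% after the trimming by 10 kb. Slc26a9, Slc2a6, Slc35b4, Slc22a14, Slc22a13 and Slc5a10 had 0% inside without domains under 100 kb. Slc36a1 kept 51.0% and 82.3% under these settings. Potassium channel genes had 4 of 91 (4.40%), namely Kcnt1, Kcna1, Kcnj5 and Kcns2, which had 48.1%, 37.9%, 33.7% and 0% inside after the trimming by 10 kb, so that none of the 4 passed 50%. Keratins had 6 of 53 (11.3%), the hair and epithelial keratin genes Krt7, Krt87, Krt88, Krt81, Krt86 and Krt84. They lie close together on chromosome 15 between 101412403 and 101532820 and so share their surroundings. All but Krt84 were in a region of 60 kb, and Krt84 was in a separate region of 10 kb. Krt7, Krt86 and Krt84 had 0% inside after the trimming, and Krt84 also had 0% without domains under 100 kb. Of the keratins 46 were mostly KOD in forebrain. Collagens had 2 of 42, Col15a1, with 100% inside, and Col13a1, with 77.5%. Interleukin, chemokine and interferon genes had 5 of 123 (4.07%), Ccl21d, Ccl21a, Cxcl12, Il20ra and Il22. Without domains under 100 kb, Ccl21a and Il20ra had 0% inside. Among ribosomal protein genes, Rpl37a lay wholly inside. Zfp genes had 0 of 386, tRNA synthetases 0 of 34, clustered protocadherins 0 of 57, and olfactory receptors 1 of 1100, Olfr319. Reads of near-identical copies, as in the Ccl21 genes and the hair keratins, may be placed on either copy, so these states are uncertain. Of the 44 genes of all lists with at least 50% inside, 26 were still so after the trimming and 29 without domains under 100 kb. Il22, Olfr319 and Slc2a6 were among those with 0% inside after the trimming. No list was tested, so no count here, set against the background of 1.56%, is particular to its list.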

How the data were processed

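CUT&RUN for H3K9me2, Lamin B1 and IgG was run on forebrain, heart and mES cells. The authors deposited 9 domain lists on mm10, 1 for each of LAD, KOD and open in each source, which hold coordinates only. Per the submitters' processing notes, which name tools without their roles, Bowtie2 2.5.0, deepTools, Picard, cutadapt 4.2 and Trim Galore were used. The sources used here do not give the domain caller.

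All domain borders in the deposited lists lie on a grid of 10 kb, and each bin was given its listed state in each source with Python 3.11.15, numpy 2.4.6 and pandas 2.3.3. Regions, neighbours, distances to LADs and gene overlaps were counted from these bins, and the counting was tested on simulated maps. Genes and gene starts came from RefSeq on GRCm38.p6, with 20661 protein-coding genes on chromosomes 1 to 19 and 20084 listed starts. A gene was counted with a region set if at least 50% of its body lay inside. Reads from long repeats and near-identical copies are hard to place, which can leave bins in no list or shift a border.

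Named genes are up to 4 genes in each of the 10 longest regions, the 5 genes with the most member bases, up to 8 genes per list with at least 50% inside, and the first 5 neural genes with less, in list order. The 26 gene lists (15 by symbol, 11 by name pattern) and the regions themselves were chosen with earlier results of these data known. Alternatives were trimmed domains, domains under 100 kb or single bins left out, gaps filled or joined, chromosome 10 left out and other ways to place a gene. No library depth was given, so no counting interval was computed. A few genes that these rules select are not reported here.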

Additional observations from a re-analysis of the deposited data

How the results depend on the processing

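No paired analysis was possible because each deposited list covers all replicates of a source, and for the same reason no replicate could be left out. Of 45 alternative values, 28 stayed within the limit set for them, which was 1.5 times for sizes in Mb and counts of regions or genes, and 1 jackknife SE for shares and median lengths. Some of the 28 had no room to move, so their number is no measure of stability. Joining across 1 bin left both shares of KOD bases at their main values. Chromosome 10 held only 4.93 of the 56.84 Mb, so leaving it out could not pass the limit for sizes. Trimming 10 kb from both ends of every deposited domain gave 35.21 Mb in 654 regions with a median of 40 kb, 15.5% of shared KOD bases open in forebrain, 3.13% open in heart and 189 genes with at least 50% inside. It also gave 0% of regions touching an open bin of heart or mES cells, by construction, since it leaves unlisted bins at every border. Leaving out deposited domains under 100 kb gave 36.25 Mb in 510 regions with a median of 50 kb, 16.1% open in forebrain, 3.49% open in heart, 186 genes and 62.7% touching. Without regions of 1 bin the median was 40 kb and 76.6% touched. Counting any overlap gave 770 genes. Counting genes by a listed start, a choice made after seeing the data, gave 285 against 322. Leaving out each chromosome in turn gave 20.2% to 22.3% open in forebrain and 5.08% to 6.28% open in heart. The forebrain share was above that of heart in every alternative computed. The cause of the moved values other than the 0% was not tested. Without scores or depths, how firmly a border is placed is unknown.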

Other observations

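Noncoding genes lay in the regions as well. Of 12408 lncRNA genes 479 had at least 50% of the body in members (3.86%), against 322 of 20661 protein-coding genes (1.56%), and the difference was not tested. Of 1136 miRNA genes 14 did (1.23%), among them Mir378c, Mir466j and Mir466k, named after their values were seen.

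Member bases were unevenly placed. Of 2468 windows of 1 Mb, 526 held any. The fullest were on chromosome 8 from 35000001 to 36000000 with 680 kb, which holds Ppp1r3b, a regulator of glycogen synthesis, and the tight junction gene Cldn23, and on chromosome 14 from 33000001 to 34000000 with 560 kb, which holds Wdfy4 and Frmpd2. The next, on chromosome 10 from 41000001 to 42000000, had 540 kb and holds Fig4, a phosphoinositide phosphatase, and Sesn1, a stress response gene.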
